A study of Mus musculus with 96 samples.

Results

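LSK-derived MLL-AF9 leukaemia was compared between the bone marrow and the spleen of the same Ptprca mice. The comparison rests on 7 of the 48 deposited profiles, each of which stands for a pair of PCR duplicates (14 of the 96 samples of the series). They are the marrow and the spleen of mice 1, 2 and 3 and the LSK pool taken before transplantation. All were chosen by their labels (strain Ptprca, tumor LSK), and the tissues were paired by mouse number. LSK cells were sorted as Lin-, c-Kit+, Sca-1+ from the marrow of female C57BL/6 mice aged 6 to 8 weeks, transduced with an MLL-AF9 retrovirus, grown in medium with cytokines and barcoded with SPLINTR libraries by spinfection. All 3 mice received cells of this 1 pool, so the mice are replicate hosts of 1 leukaemia culture and not replicate leukaemias. Other groups served only for comparison. These were 4 NSG mice with the LSK leukaemia, 4 Ptprca mice with leukaemia from GMP cells (sorted as Lin-, c-Kit+, CD34+, FcγRHI, with the same retrovirus), and 4 Ptprca mice with both leukaemias mixed.

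SPLINTR barcodes are heritable DNA tags that sit beside a fluorescent reporter gene, so that the descendants of a tagged cell share a tag. MLL-AF9 is a fusion oncogene that turns blood progenitors into serially transplantable myeloid leukaemia, which fills the marrow and enlarges the spleen in mice. LSK cells are immature marrow cells that include the haematopoietic stem cells, and Ptprca mice carry another allele of the CD45 gene than C57BL/6 donors and have a working immune system. Marrow is the main site of adult blood formation, and the mouse spleen also supports it.

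Each barcode with a GFP name is called a clone here, and its size is its share of all GFP-barcode reads of the library. The 6 tissue libraries held 5475418 to 7578293 reads and the pool 5871935. Barcodes of other reporters made up 0.0209% to 0.0592% of the tissue reads. GFP barcodes with no read in the pool held at most 0.00698%. A clone with 0 reads in a tissue may hold up to 3.96e-05% to 5.48e-05% of it, depending on the library. Such limits reflect counting alone: reads here carry no molecular identifiers, so several can stem from the same DNA molecule. Shares say nothing of the total number of leukaemia cells: fewer cells of a clone and more cells of all others cannot be told apart.

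The spleen held fewer large clones than the marrow of the same animal, and the pool lay far from both. GFP_Barcode_1859 was the largest clone of all 6 tissues. It held 27.2%, 33.0% and 23.7% of the marrow of mice 1, 2 and 3, and 44.1%, 51.4% and 48.5% of their spleens. Every spleen lay above every marrow. The mean difference was -20.02 percentage points, marrow minus spleen (SD 4.17, n = 3). The 10 largest clones of a library together held 76.2%, 78.9% and 76.8% of the marrows and 93.5%, 95.7% and 93.2% of the spleens, against 18.1% of the pool.

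It took 3, 3 and 4 clones to reach 50% of the marrow reads and 2, 1 and 2 to reach 50% of the spleen reads. To reach 90% took 27, 23 and 28 clones in marrow and 8, 6 and 7 in spleen. The pool needed 58 and 334 clones for the same shares. Clones between 0.1% and 1% differed most in number. There were 44, 38 and 46 of them in the marrows and 15, 14 and 16 in the spleens, and they held 14.8% ± 1.81 of marrow and 4.01% ± 0.944 of spleen reads (SD, n = 3). Clones at or over 1% numbered 14, 15 and 14 in marrow and 11, 8 and 9 in spleen, with 82.4% ± 1.78 and 94.0% ± 1.34 of the reads.

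**Figure D1:**
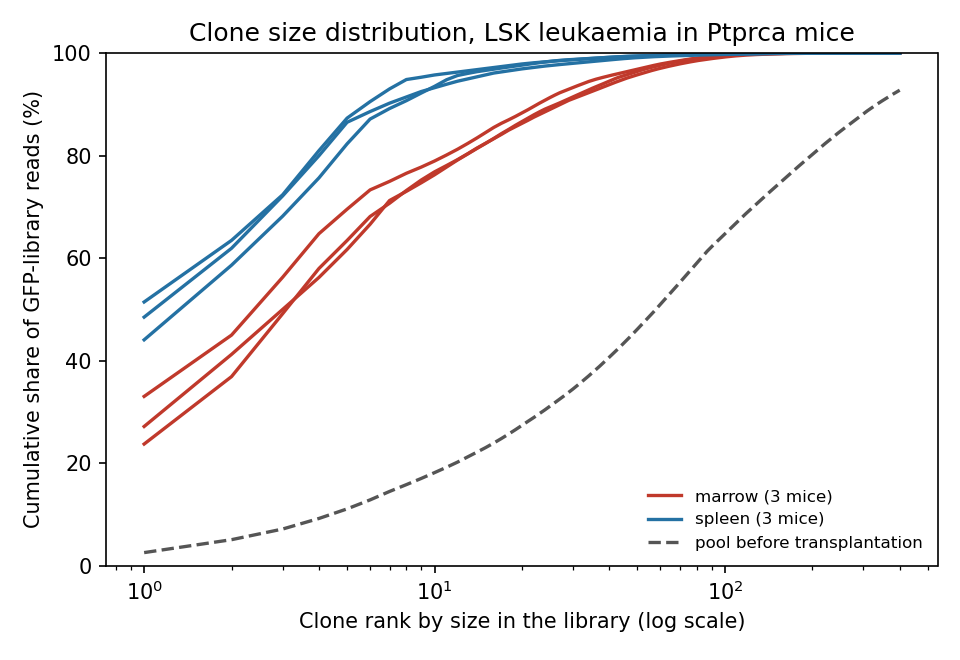
Cumulative share of GFP-barcode reads (%) against the rank of the clone by size (log scale), with 1 line for each marrow, spleen and the pool. The 3 spleen lines run above the 3 marrow lines, passing 90% by the eighth clone at the latest, while the pool line passes 90% at 334 clones.

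Detected clones, those at or over 0.01% of the library (100 CPM, counts per 1000000 reads), numbered 110, 113 and 126 in marrow and 65, 65 and 73 in spleen. The pool had 679. The groups did not overlap, and marrow held 1.72-fold more (log2 0.78 ± 0.02, SD, n = 3, higher in 3 of 3 mice). Effective clones, the exponential of the Shannon entropy, count clones weighted by their evenness. They came to 19.4, 15.6 and 20.3 in marrow and 7.77, 6.21 and 7.11 in spleen, again without overlap, and to 296 in the pool. Marrow was 2.62-fold higher (log2 1.39 ± 0.11, SD, n = 3). For each of these comparisons the exact two-sided sign-flip permutation p over mice was 0.25, the smallest that 3 mice allow (adjusted 0.25 over 9 tests).

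The excess of detected clones depended on where the line was drawn. At or over 1000 CPM (0.1%) it was 1.23 log2, at or over 10 CPM 0.11 log2, and for clones with any read 0.22 log2. Clones with any read numbered 349, 280 and 308 in marrow and 254, 266 and 283 in spleen, and the groups overlapped. A dominant clone also lowers the share of all others. With GFP_Barcode_1859 left out and the rest rescaled, an alternative chosen after seeing the data, detected clones numbered 113, 125 and 132 in marrow and 82, 90 and 103 in spleen. The excess was then 0.43 log2 (1.35-fold), and that of effective clones 1.16 log2.

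Most clones of the spleen were also detected in the marrow of that mouse, and about as many marrow clones were missing from the spleen as were shared. Mouse 1 had 57 clones detected in both tissues, 53 in marrow only and 8 in spleen only. Mouse 2 had 56, 57 and 9, and mouse 3 had 61, 65 and 12, in the same order. Shared clones made up 83.6% to 87.7% of the spleen clones and 48.4% to 51.8% of the marrow clones. After adding 1 to each count, marrow-only clones exceeded spleen-only clones by 2.49 log2 (SD 0.13, n = 3, 3 of 3 mice, exact sign-flip permutation p = 0.25). At or over 10 CPM this excess was 0.54 log2 and at or over 1000 CPM 4.43 log2.

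Clones of a single tissue were small and seldom without reads in the other. Marrow-only clones held 4.53%, 4.71% and 4.74% of marrow reads, and spleen-only clones 0.185%, 0.203% and 0.568% of spleen reads. The median marrow-only clone had 0.0451%, 0.0385% and 0.0434% of its library. Of the 53, 57 and 65 marrow-only clones, 41, 53 and 56 had over 10 reads in the spleen of that mouse and 7, 1 and 8 had none. Every spleen-only clone had over 10 reads in the marrow. The difference between tissues was thus mainly in the number of reads, and seldom between some reads and 0. Whether such reads came from cells of the clone in that tissue was not tested. A barcode of another reporter, mCHERRY_2_Barcode_427666, had 226 and 236 CPM in the spleens of mice 1 and 2.

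Over the 3 mice, 189 clones were detected in at least 1 marrow and 99 in at least 1 spleen. Of the marrow clones 93 (49.2%) came up in a single mouse, 32 in 2 and 64 (33.9%) in all 3. Of the spleen clones 35 (35.4%) came up in a single mouse, 24 in 2 and 40 (40.4%) in all 3. A core of 38 clones was detected in all 6 tissues. The clones found in all 3 marrows held 94.4% to 95.7% of the marrow reads, and those found in all 3 spleens 98.4% to 98.9% of the spleen reads. The clones of a single mouse held 2.03% to 2.61% of a marrow and 0.136% to 0.643% of a spleen.

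Few of the clones of a single mouse were large. In marrow 14 of 93 reached 0.1%, and in spleen 1 of 35. The largest was GFP_Barcode_61835, the second-largest clone of the pool at 2.52%. It held 1.09% of the marrow of mouse 2 but 0.0047% and 0.0018% of the marrows of mice 1 and 3, and 0.00289%, 0.00598% and 0.00367% of the spleens. In spleen the largest was GFP_Barcode_7280 with 0.45% of mouse 2, named after its values were seen.

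In all 102 clones were detected in marrow and in no spleen, 80 of them in a single mouse. The reverse held for 12 clones, 10 of them in a single mouse and none above 0.0735%. Of the 40 clones detected in all 3 spleens none was missing from every marrow. Of the 64 detected in all 3 marrows 6 were detected in no spleen. The 5 largest of these 6 were GFP_Barcode_11669, GFP_Barcode_29562, GFP_Barcode_71144, GFP_Barcode_4307 and GFP_Barcode_21097. All 5 had been larger in the pool, at 0.568%, 0.425%, 0.223%, 0.13% and 0.571% in that order. Their marrow means were 0.149% ± 0.121, 0.0761% ± 0.0917, 0.0506% ± 0.0692, 0.0495% ± 0.0496 and 0.0362% ± 0.0144 (SD, n = 3). Their spleen means were between 0.00285% and 0.00482%. All 5 had reads in every spleen, from 33 to 623 per library. Some lay near the line of 0.01%. GFP_Barcode_71144 had 0.0107% and 0.0106% of the marrows of mice 1 and 2, and GFP_Barcode_21097 0.00987% of the spleen of mouse 3. In the limma test described below only GFP_Barcode_11669 was called (adjusted p = 0.0181). The others had limma adjusted p of 0.0686, 0.309, 0.141 and 0.145 in the order named.

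Against the pool, many clones fell below detection (100 CPM) in both tissues, and more did so in spleen. Below detection does not mean absent, since 495 GFP barcodes had at least 1 read in some tissue. For clones with any read, the counts of marrow and spleen overlapped. Of the 679 clones detected in the pool, 103, 106 and 122 were detected in marrow and 62, 65 and 70 in spleen. In no tissue of any mouse were 492 of them detected, and these had held 39.8% of the pool reads. Gains from below detection were rare, with 7, 7 and 4 clones in marrow and 3, 0 and 3 in spleen. No detected clone lacked reads in the pool.

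Large pool clones were detected more often than small ones, though not always. The pool had 13 clones at or over 1%, of which 8, 9 and 8 were detected in marrow and 5, 8 and 8 in spleen. Of its 197 clones between 0.1% and 1%, 32.7% ± 5.11 were detected in marrow and 19.6% ± 0.293 in spleen. Of its 469 clones between 0.01% and 0.1%, 8.03% ± 0.685 and 4.26% ± 0.739 were detected (SD, n = 3). The 3 largest pool clones took different courses. GFP_Barcode_13743, the largest at 2.55% (95% Wilson interval 2.54 to 2.56), had 0.0162%, 0.0625% and 0.0794% of the marrows and 0.00164%, 0.00265% and 0.0274% of the spleens. GFP_Barcode_61835 is described above, and GFP_Barcode_7785, at 2.08% of the pool, became a leading clone of both tissues.

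More clones were above their pool share in marrow than in spleen, but marrow also had more detected clones. Of 110, 113 and 126 clones detected in marrow, 56, 46 and 49 were larger than in the pool and 54, 67 and 77 smaller. Of 65, 65 and 73 detected in spleen, 27, 21 and 27 were larger and 38, 44 and 46 smaller. The difference in number thus partly restates that of detected clones. Clones at least 10-fold over a pool value of 10 or more reads numbered 19, 15 and 16 in marrow, with 52.7%, 64.3% and 62.3% of the reads. In spleen they numbered 8, 10 and 8, with 77.4%, 84.2% and 79.7%. The steepest rise in every spleen was that of GFP_Barcode_2255, 191-fold, 228-fold and 167-fold over its pool share.

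Spleens of different mice were more alike than the marrow and spleen of the same mouse. The shared share, the sum over clones of the smaller of the values in a pair of libraries, was 85.2% to 90.5% among spleens and 74.8% to 77.9% among marrows. It was 67.3%, 70.4% and 61.5% for the marrow and spleen of mice 1, 2 and 3, and 57.7% to 74.1% for the marrow of a mouse and the spleen of another. The pool shared 17.3% to 19.9% with marrows and 7.95% to 9.31% with spleens. These values weigh large clones most. On log2 values of the 134 clones with a mean at or over 0.01%, where small clones count as much as large, Pearson's r across clones was 0.82 to 0.86 among spleens. It was 0.65 to 0.79 within a mouse and 0.49 to 0.61 among marrows. The clones of a library share its reads, so r is a description only.

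The 10 clones with a mean at or over 1% of the 6 libraries fell into clones that led both tissues and clones that leaned to either. GFP_Barcode_1859 rose from 0.462% of the pool, rank 60, to 28.0% ± 4.70 of marrow and 48.0% ± 3.72 of spleen. GFP_Barcode_7785 held 14.1%, 11.96% and 12.3% of the marrows and 14.6%, 8.61% and 10.2% of the spleens. GFP_Barcode_100907, at 0.533% of the pool, held 8.79%, 11.3% and 8.82% of the marrows and 9.56%, 12.02% and 13.4% of the spleens. GFP_Barcode_29850, at 0.563% of the pool, held 4.91%, 8.49% and 13.2% of the marrows and 6.64%, 6.34% and 7.84% of the spleens. The tissues overlapped for the last 3 of these clones, with log2 ratios of marrow over spleen of 0.23 (SE 0.29), -0.27 (SE 0.30) and 0.24 (SE 0.33). None of the 3 was called in the test across clones described next.

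That test was limma on log2(CPM + 10) with the mouse as a block, over the 134 clones averaging 100 CPM or more, called at an adjusted p under 0.05 (Benjamini-Hochberg). It called 27 clones higher in marrow, 20.1% of those tested, and 4 higher in spleen, 2.99%. The minimum applied to the mean over both tissues, so a clone could pass through 1 tissue alone. Among the marrow calls GFP_Barcode_6595, GFP_Barcode_62077, GFP_Barcode_87062 and GFP_Barcode_11669 had spleen means of 0.00928%, 0.00698%, 0.00946% and 0.00482%, under 100 CPM. The counts per direction thus partly reflect which clones entered. Every marrow lay above every spleen for 42 clones (31.3%) and below for 4 (2.99%). The calls concern shares of the library, and the scale decides their balance. The median tested clone had a log2 ratio of 1.82, and centring takes off 2.90 log2, the difference between the median levels of the tissues. With each library centred on its median tested clone, 0 clones were called higher in marrow and 16 in spleen. With edgeR and TMM scaling the split was 0 and 8, with DESeq2 7 and 10, and with edgeR on read totals 20 and 3. No spleen call reversed under these scalings, but this is no support for those calls. Centring and TMM (1.81 log2) shift every ratio towards spleen. DESeq2 moved GFP_Barcode_1859 the same way, from -0.79 to -2.68. Of the 27 marrow calls 8 reversed with centring, 4 with TMM and 5 with DESeq2.

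**Figure D2:**
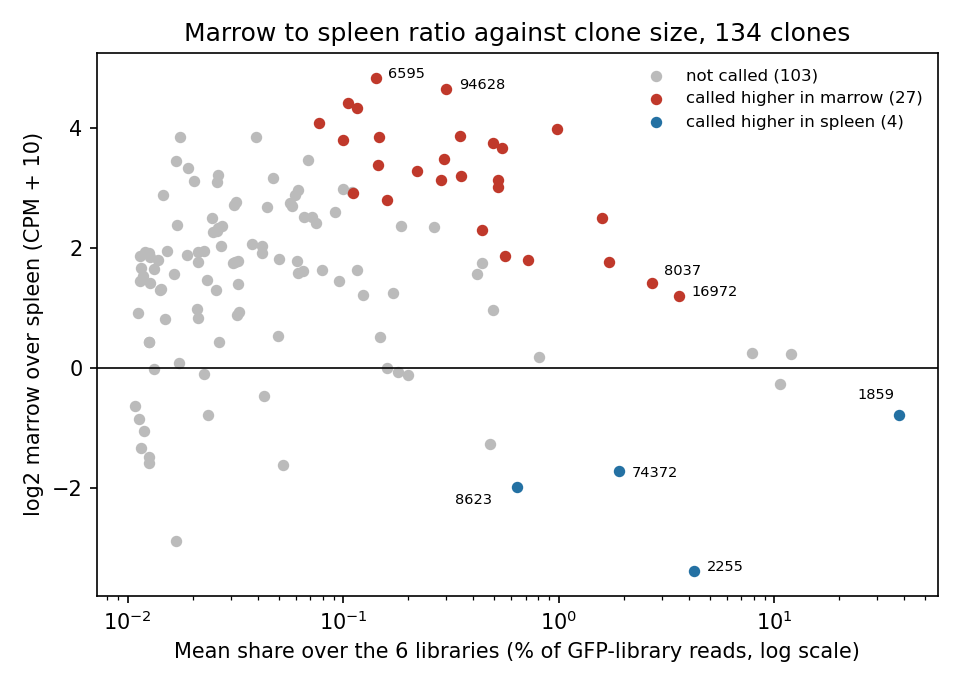
Log2 ratio of marrow over spleen (CPM + 10, mean of 3 mice) against the mean share of the clone over 6 libraries (%, log scale) for 134 clones, coloured by limma's call, with some clones marked by barcode number. The 27 marrow calls lie mostly between 0.1% and 1%, and the 4 spleen calls are at or over 0.1%.

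The fit took the spread of a clone wholly from the trend with abundance (infinite prior degrees of freedom), so scatter between mice of a given clone hardly enters. Without the trend limma called 0 clones, with 36 at an unadjusted p under 0.05. With a minimum of 10 CPM or no minimum it also called 0 (45 and 44 unadjusted). Without mouse 2 it called 3 clones higher in marrow and 1 in spleen, and without mouse 1 13 and 2.

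The lowest p-value in this test was that of GFP_Barcode_2255. It held 0.0391% of the pool, rank 382, then 1.18%, 1.17% and 0.274% of the marrows and 7.46%, 8.89% and 6.52% of the spleens. All spleens lay above all marrows, with a log2 ratio of -3.38 (SE 0.45, limma adjusted p = 1.34e-10). GFP_Barcode_74372 went from 0.0356% of the pool to 0.937%, 0.62% and 0.956% of the marrows and 4.83%, 2.48% and 1.64% of the spleens (log2 -1.71, SE 0.51, limma adjusted p = 0.00685). GFP_Barcode_8623 held 0.0264% of the pool, 0.334%, 0.153% and 0.191% of the marrows and 2.05%, 0.441% and 0.669% of the spleens (log2 -1.98, SE 0.71, limma adjusted p = 0.0283). GFP_Barcode_1859 had the smallest change of the 4 spleen calls (log2 -0.79, SE 0.21, limma adjusted p = 0.00185). The first 3 of these clones ranked 382, 397 and 482 in the pool.

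Of the 10 leading clones 4 were called higher in marrow. GFP_Barcode_16972 held 5.46%, 4.78% and 4.67% of the marrows and 1.49%, 3.22% and 2.09% of the spleens (log2 1.203, SE 0.41, limma adjusted p = 0.0211). GFP_Barcode_8037 held 6.21%, 3.76% and 2.04% of the marrows and 1.29%, 1.83% and 1.06% of the spleens (log2 1.41, SE 0.46, limma adjusted p = 0.0142). GFP_Barcode_15135 held 4.64%, 1.12% and 2.49% against 0.404%, 0.292% and 0.594% (log2 2.51, SE 0.57, limma adjusted p = 0.000435). For these 3 the tissues did not overlap. GFP_Barcode_29725 held 1.51%, 0.987% and 5.46% of the marrows and 0.834%, 0.205% and 1.21% of the spleens, which overlapped (log2 1.76, SE 0.56, limma adjusted p = 0.0118). Relative to the median tested clone all 4 turned, to -1.69, -1.48, -0.39 and -1.13 in the order named.

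**Figure D3:**
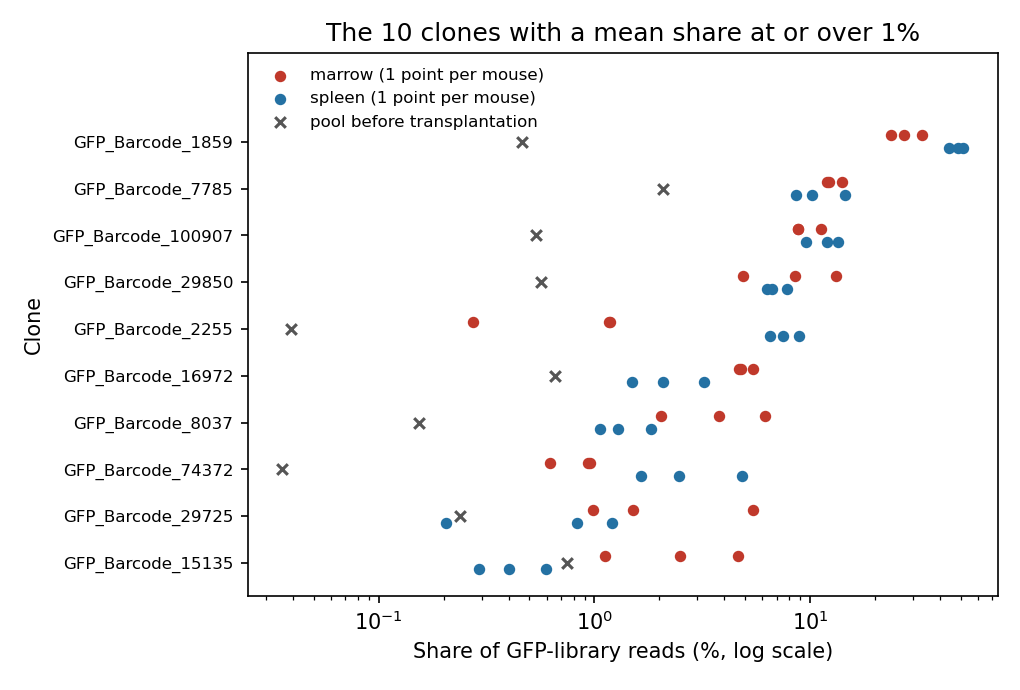
Shares of GFP-barcode reads (%, log scale) of the 10 clones with a mean at or over 1%, with 1 point per mouse for marrow and spleen and a cross for the pool. The spleen points of GFP_Barcode_1859, GFP_Barcode_2255 and GFP_Barcode_74372 lie to the right of their marrow points (higher), and those of GFP_Barcode_16972, GFP_Barcode_8037 and GFP_Barcode_15135 to the left.

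The largest ratios among the marrow calls belonged to clones with a mean share below 1%. GFP_Barcode_6595 held 0.263%, 0.138% and 0.417% of the marrows and 0.0122%, 0.0025% and 0.0132% of the spleens (log2 4.84, SE 1.19, limma adjusted p = 0.00126). GFP_Barcode_62077 held 0.42%, 0.0706% and 0.116% against 0.00309%, 0.0122% and 0.00567% (log2 4.42, limma adjusted p = 0.00548). GFP_Barcode_87062 held 0.334%, 0.125% and 0.203% against 0.00614%, 0.0124% and 0.00985% (log2 4.34, limma adjusted p = 0.00337). Their marrows lay above their spleens throughout, as did those of GFP_Barcode_11669 (log2 4.08, limma adjusted p = 0.0181). GFP_Barcode_94628 was uneven, with 1.38%, 0.341% and 0.0305% of the marrows and 0.0344%, 0.000804% and 0.0136% of the spleens, which overlapped (log2 4.65, limma adjusted p = 0.00161). All 5 kept their direction under every alternative tried, but each lost its call in at least 6 of them.

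The 27 clones called higher in marrow together held 29.2%, 24.3% and 30.6% of the marrows and 5.57%, 6.77% and 7.16% of the spleens, having held 14.96% of the pool. The 4 spleen calls held 29.6%, 35.0% and 25.1% of the marrows and 58.4%, 63.3% and 57.3% of the spleens, having held 0.563% of the pool. Most of the latter is GFP_Barcode_1859. These sums describe clones chosen by the same values and are no further test.

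By size, the marrow to spleen ratio was near even for large clones, highest for clones of middle size and lower again for smaller ones. Size here is the mean over the 6 libraries, and the ratio is the median log2 value over the clones of a class in each mouse. The 10 clones at or over 1% had medians of -0.09, 0.45 and 0.51 in mice 1, 2 and 3. The 37 clones of 0.1% to 1% had 2.30, 2.60 and 2.78, and 23 of the 37 were higher in marrow in all 3 mice and 1 in spleen. The 87 clones of 0.01% to 0.1% had 1.23, 1.78 and 1.46, with 29 higher in marrow in all 3 mice and 4 in spleen. The 111 clones of 0.001% to 0.01% had a median of 0 in each mouse. Of them 51, 50 and 55 were higher in marrow and 37, 36 and 41 in spleen. The rest had a ratio of exactly 0, and the median falls among them. The added 10 CPM also shrinks ratios at this size. These clones held 0.583%, 0.588% and 0.858% of the marrows and 0.189%, 0.175% and 0.199% of the spleens. The middle class held 19.6%, 18.2% and 19.7% of the marrows and 7.92%, 3.73% and 5.35% of the spleens.

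Clones of 0.01% to 0.1% exceeded those at or over 1% by 1.202 log2 (SD 0.21, n = 3, 3 of 3 mice, exact sign-flip permutation p = 0.25). Clones of 0.1% to 1% exceeded them by 2.27 log2. The former value fell to 0.46 when each mouse's size classes were taken from the other mice, and to 0.44 with 100 CPM added. It was 1.51 with 1 CPM added, and 1.99 without the replicate block, from medians taken within each tissue.

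**Figure D4:**
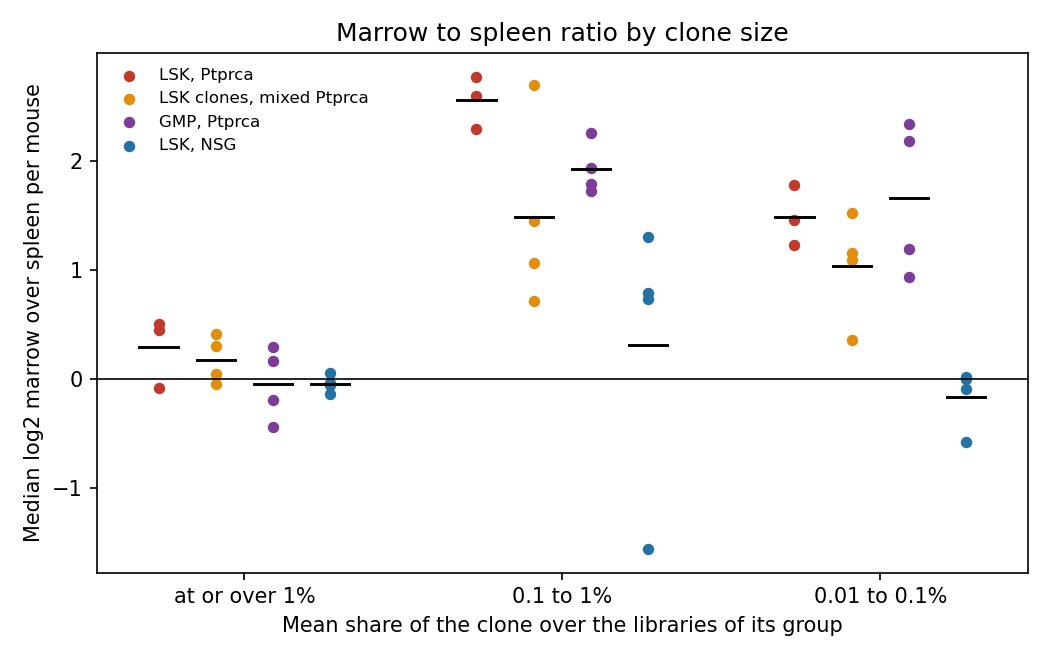
Median log2 ratio of marrow over spleen per mouse (points) and its mean over mice (lines) by the mean share of the clone, for LSK leukaemia in Ptprca and NSG mice, LSK clones of mixed Ptprca recipients and GMP leukaemia in Ptprca mice. In the Ptprca groups all points of the 0.1% to 1% and 0.01% to 0.1% classes lie above 0, while the NSG points lie on both sides.

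Calls followed the same classes. Of the 10 clones at or over 1%, 4 were called higher in marrow and 3 in spleen. Of the 37 clones of 0.1% to 1%, 21 and 1 were called. Of the 87 clones of 0.01% to 0.1%, 2 and 0 were called, although every marrow lay above every spleen for 19 of them. The median SE rose from 0.43 in the first class to 0.91 and 1.65, so smaller clones needed larger ratios.

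The mixed Ptprca recipients are separate mice that carried the same LSK clones beside GMP-derived cells, and GFP_Barcode_2255 leaned to the spleen there too. It held 0.579% ± 0.338 of GFP reads in their marrow and 6.507% ± 1.402 in their spleen (log2 -3.64 ± 0.89, SD, n = 4, 4 of 4 mice). GFP_Barcode_1859 held 39.2% ± 6.08 and 57.8% ± 4.80 there (log2 -0.57 ± 0.29, 4 of 4 mice higher in spleen). GFP_Barcode_16972 held 3.52% ± 0.834 and 1.72% ± 0.180 (log2 0.997 ± 0.396, 4 of 4 mice higher in marrow). So were GFP_Barcode_8037 and GFP_Barcode_87062, at 1.74 ± 1.69 and 3.37 ± 1.64 log2. GFP_Barcode_29725, GFP_Barcode_15135 and GFP_Barcode_11669 were higher in marrow in 3 of 4 mice, and GFP_Barcode_94628 in 2 of 4. GFP_Barcode_62077 was below detection. GFP_Barcode_74372 and GFP_Barcode_8623, at -0.71 ± 2.48 and 0.23 ± 2.75 log2, went both ways among these mice, as did GFP_Barcode_6595 at -0.77 ± 3.54.

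Of the 27 marrow calls, 26 were detected in some library of the mixed recipients. The mean ratio was above 0 for 24, and all 4 mice were above 0 for 10, with a median of 1.75 log2. Of all 110 tested clones detected there, 89 were above 0 and 27 were so in all 4 mice, with a median of 1.45. These 110 include the calls. Of the 80 clones not called, 64 were above 0 and 17 were so in all 4 mice, with a median of 1.48. By the median the marrow calls thus stood little above the clones not called. A larger part of the calls was above 0 in all 4 mice (10 of 26 against 17 of 80). Of the 4 spleen calls, 3 had a mean below 0, against 21 of 110 clones. In NSG mice, 14 of 22 detected marrow calls were above 0 (median 0.46 log2), against 35 of 67 clones (median 0.09). GFP_Barcode_2255 held 1.15% ± 1.06 and 1.83% ± 1.64 of NSG marrow and spleen, higher in spleen in 4 of 4 mice (log2 -0.93 ± 0.78). The other spleen calls had NSG log2 ratios of -0.14 ± 0.22 for GFP_Barcode_1859 (higher in spleen in 3 of 4 mice), 0.24 ± 2.19 for GFP_Barcode_74372 (2 of 4) and -0.23 ± 1.38 for GFP_Barcode_8623 (2 of 4).

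The tissue difference in clone numbers was larger than in NSG recipients of the same pool. In those 4 mice detected clones numbered 35 to 49 in marrow and 34 to 46 in spleen, a log2 difference of 0.07 ± 0.04 (SD, n = 4). Effective clones differed by 0.07 ± 0.12 log2. The tissue difference of the Ptprca mice was larger by 0.71 log2 for detected and by 1.32 log2 for effective clones, without overlap between hosts. Each had an exact two-sided permutation p of 0.0286, which is the minimum for 3 mice against 4. Adjusted over 9 tests this exact p became 0.0857, which fails the threshold.

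In Ptprca recipients of GMP leukaemia, counted by their mCherry barcodes, detected clones differed by 0.70 ± 0.08 log2 between marrow and spleen and effective clones by 0.63 ± 0.27 (SD, n = 4). The LSK value exceeded the former by 0.08 log2 (exact permutation p = 0.143, adjusted 0.25), and the mice overlapped. It exceeded the latter by 0.75 log2 without overlap (exact permutation p = 0.0286, adjusted 0.0857). The LSK clones of mixed Ptprca recipients showed 0.78 ± 0.14 and 1.22 ± 0.36 log2 (SD, n = 4). Marrow thus had more detected and more effective clones than spleen in every Ptprca mouse of these 3 groups.

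**Figure D5:**
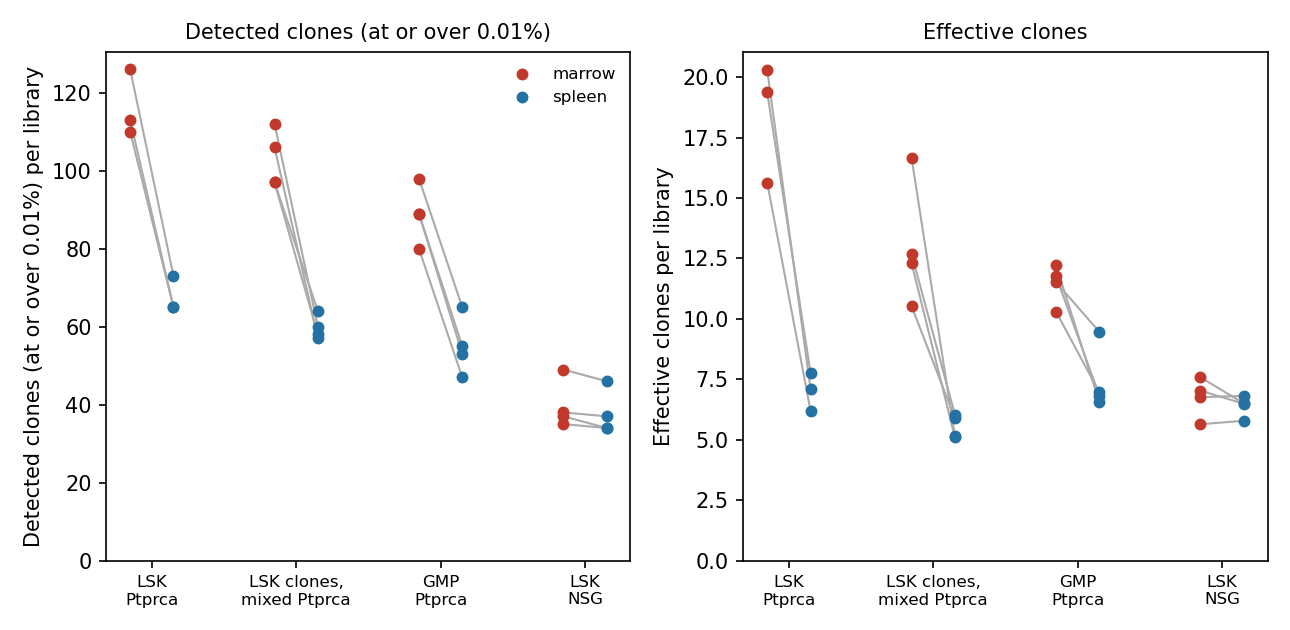
Detected clones and effective clones per library in marrow and spleen, with a line joining the tissues of a mouse, for LSK leukaemia in Ptprca mice (n = 3) and for LSK clones of mixed Ptprca, GMP Ptprca and LSK NSG recipients (n = 4 each). Marrow lies above spleen in every Ptprca mouse, and the NSG lines run closer to level.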

How the data were processed

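Barcodes were counted by amplicon sequencing. Per the labels the material was genomic DNA, although the extraction protocol describes a droplet preparation. Bowtie 1.2.2 and R 3.6 are named in the submitters' processing notes; their settings, the barcode filters and how PCR duplicates were collapsed are not given in the sources used here. The authors deposited CPM, which sum to 1000000 per column. All listed values were whole multiples of 1 step (within 0.01), taken as 1 read. Of 48 distinct columns 17 were not used.

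GFP reads were rescaled to the GFP total. Clones were tested with limma 3.58.1 (lmFit, eBayes with trend, mouse as block, log2 of CPM + 10, mean at or over 100 CPM), and edgeR 4.0.16 and DESeq2 1.42.0 on recovered reads were alternatives. Single values were tested by exact sign-flip or permutation tests over mice. The scripts were tested on simulated data. For limma the simulated spread followed the trend with abundance that the fit itself assumes, so this does not show that the calls hold. The labels give the same animal for both tissues. Deviations from the tissue means had r = 0.42, 0.28 and 0.19 within mice 1, 2 and 3, and -0.37 to 0.13 between mice. Deviations from a mean of 3 mice sum to 0, which pushes values between mice below 0, so these r are weak evidence of pairing. With 1 library per tissue and mouse, the sign-flip and permutation tests take the mouse as the unit. Where all mice share a sign, or groups do not overlap, their p-values stand at the minimum whatever the spread. The p-values of limma rest on the trend of spread with abundance over the tested clones, and scatter between mice of a given clone hardly enters.

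The clones named are those with a mean at or over 1%, up to 5 called per direction by size of ratio, up to 5 detected in all 3 marrows and no spleen or the reverse, and the 3 largest of the pool. The comparison and these rules were chosen with earlier results of these data known. Barcode sequences were not used here.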

Additional observations from a re-analysis of the deposited data

Results flagged for a closer look

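Reads of mCherry barcodes in all 6 tissues, and of BFP barcodes in 2 of them, were above their level in the LSK pool, where mCherry barcodes had 20.9 and BFP barcodes 56.0 CPM. The mCherry barcodes, which mark GMP-derived cells, had 334, 203 and 305 CPM in the marrows of mice 1, 2 and 3 and 414, 523 and 117 in their spleens. BFP barcodes had 68.9 CPM in the spleen of mouse 2 and 121 in that of mouse 3, and 37.9, 6.72 and 54.5 CPM in the marrows and 52.5 in the spleen of mouse 1, below the pool. The marrow of mouse 1 listed 239 mCherry barcodes, 123 of them with 1 read, while the other 5 tissues listed 22 to 48. A single barcode, mCHERRY_2_Barcode_427666, made up 54.7% and 45.0% of the mCherry reads in the spleens of mice 1 and 2. The source of these reads was not tested.

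Among 49 groups of 4 mice examined for a value far from the rest, 3 stood out, and chance alone gives about 1 in 20. Mouse 7 had 9.47 effective clones in spleen among the GMP recipients of the Ptprca strain. Mouse 20, a mixed recipient, had a log2 ratio of marrow over spleen of -2.33 for GFP_Barcode_62077 and -1.01 for GFP_Barcode_21097, below the other 3 mice. GFP_Barcode_62077 was below detection in all 8 libraries of the mixed recipients, with at most 0.000751% in marrow and 0.00781% in spleen.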

How the results depend on the processing

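Libraries thinned to the lowest depth, and barcodes of the pool alone, left the 5 results paired by mouse within 1 SD. Depths were close (5475418 to 7578293 reads), so thinning could hardly move results at 100 CPM. Reads carry no molecular identifiers, so thinning cannot show how many cells or DNA molecules were sampled per tissue. The detected-clone excess was 0.11 log2 at 10 CPM, 1.23 at 1000 CPM, 0.22 for any read, 0.43 with GFP_Barcode_1859 left out and 0.33 with GFP_Barcode_2255 left out as well. Effective clones gave 1.15 by the inverse Simpson index, and 1.16 and 1.23 with those clones left out. The excess of clones in a single tissue was 0.54 at 10 CPM and 4.43 at 1000 CPM. The gap between small and large clones was 1.51 with 1 CPM added, 0.44 with 100 CPM, 0.46 with classes from the other mice, 2.27 for clones of 0.1% to 1% and 1.99 with no replicate block. Paired and unpaired values of detected clones, effective clones and the largest clone were equal, with an unpaired exact permutation p of 0.1, the smallest possible; for clones in a single tissue, which need both tissues of a mouse, no unpaired version was run. Against NSG mice the detected-clone difference was 0.33 at 10 CPM (exact permutation p = 0.0571). Against GMP recipients it was -0.033 at 1000 CPM.

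Leaving out each mouse in turn gave 0.77 to 0.79 log2 for detected clones, 1.32 to 1.42 for effective clones, -21.6 to -17.7 points for the largest clone, 2.44 to 2.56 for clones in a single tissue and 1.14 to 1.32 for small against large clones. It gave 0.70 to 0.72 and 1.25 to 1.36 for detected and effective clones against NSG mice, and 0.04 to 0.10 and 0.64 to 0.84 against GMP recipients, with too few mice for an exact p under 0.05. Called clones ranged from 4 to 29, with 3 to 25 higher in marrow and 1 to 4 in spleen.

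With no replicate block limma called 32 clones, 28 higher in marrow and 4 in spleen. It called 0 in either direction with a minimum of 10 CPM, with no minimum and without trend. Centring gave 16 calls (0 in marrow, 16 in spleen), edgeR with TMM 8 (0 and 8), and DESeq2 17 (7 and 10); 6 of its 7 marrow calls were among the 27. With centring the log2 ratio turned for GFP_Barcode_7785 (-2.67), GFP_Barcode_29850 (-2.65), GFP_Barcode_16972 (-1.69), GFP_Barcode_8037 (-1.48), GFP_Barcode_29725 (-1.13), GFP_Barcode_15135 (-0.39), GFP_Barcode_71144 (-0.53), GFP_Barcode_13743 (-0.12) and GFP_Barcode_61835 (-0.53). With TMM it turned for GFP_Barcode_7785 (-1.58), GFP_Barcode_29850 (-1.56), GFP_Barcode_16972 (-0.61), GFP_Barcode_8037 (-0.40), GFP_Barcode_29725 (-0.032) and GFP_Barcode_61835 (-0.39). With DESeq2 the same 6 gave -1.66, -1.64, -0.68, -0.47, -0.11 and -0.34. Without mouse 3, GFP_Barcode_29850 gave -0.0071, and 0.58 at most without another mouse.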

Other observations

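Some pairs of barcodes kept nearly the same ratio to each other across all 6 tissues. Of 8911 pairs among the 134 tested clones, 5 had an SD of their log2 ratio under 0.25, a limit chosen after seeing the data, against a median of 2.73 over all pairs. GFP_Barcode_12360 and GFP_Barcode_52450 had a mean log2 ratio of -1.404 (SD 0.16) over the 6 tissues, -1.45 in the pool and -1.31 (SD 0.12) in 7 libraries of the mixed Ptprca recipients. GFP_Barcode_55490 and GFP_Barcode_103752 had 0.35 (SD 0.20), 0.54 in the pool and 0.61 (SD 0.13) in 5 mixed libraries. GFP_Barcode_11863 and GFP_Barcode_102032 had -0.17 (SD 0.21), -0.10 in the pool and -0.14 (SD 0.19) in 8 mixed libraries. GFP_Barcode_16022 and GFP_Barcode_21010 had 0.37 (SD 0.24), 0.28 in the pool and 0.53 (SD 0.13) in 8 mixed libraries. GFP_Barcode_1143 and GFP_Barcode_60040 had -1.35 (SD 0.25) but -0.38 in the pool and -2.48 (SD 2.10) in 2 mixed libraries. GFP_Barcode_52450, GFP_Barcode_55490, GFP_Barcode_103752 and GFP_Barcode_60040 are among the 27 clones called higher in marrow. In NSG mice the first 4 pairs had SDs of 0.57, 0.18, 0.51 and 0.63 in the order named, over 4, 5, 7 and 6 libraries, so 3 of the 4 were above the limit of 0.25 there. Whether both barcodes of such a pair sit in the same cells was not tested.

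GFP_Barcode_43817, named after its values were seen, had 0.0111% of the pool and differed between mice. It held 1.55%, 0.559% and 0.291% of the marrows and 1.54%, 0.152% and 0.748% of the spleens of mice 1, 2 and 3.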
